A study of Rattus norvegicus with 12 samples.

Results

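The genes described here are 46 genes of the cell cycle and of proliferation, listed by name and grouped by role: 6 of the G1 phase, 11 of DNA replication, 25 of mitosis and 4 inhibitors. They were listed by function, with earlier results of these data known. Each was read from 1 probe set, the one with the highest mean over the 12 arrays. Of the 46, 38 were measured among 10411 genes in all: 5 G1 genes, 10 replication genes, 19 mitosis genes and 4 inhibitors. Cdk2, Ccna2, Bub1, Kif11, Tpx2, Prc1 and Nusap1 were not analysed here because no probe set was named to them alone or with others. Rrm2 was named only by a probe set that it shares with Rrm2l1, and that probe set is described apart. The tissue was the dorsal root ganglion (DRG), the cluster of sensory nerve cell bodies beside the spinal cord, at levels L4 and L5. The animals were adult male Sprague Dawley rats of a pair of genetic sub-lines, High Pain (HP) and Low Pain (LP). Each of 4 groups had 3 arrays: HP rats 3 days after spinal nerve ligation of L4 and L5 (HP SNL), HP rats after a sham operation that left the nerves intact (HP sham), LP rats 3 days after the same ligation (LP SNL) and LP rats after sham (LP sham). The labels give no time for the sham groups. They also do not say whether an array is 1 animal or a pool, so the p-values measure the spread between these arrays, which may be technical.

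A cell enters the cycle when D-type cyclins pair with Cdk4 and inactivate the retinoblastoma proteins, which frees E2F factors to switch on the genes of DNA replication. Later in the cycle a different set of genes, for spindle, chromosome and cytokinesis proteins, is switched on through complexes that contain B-Myb, FoxM1 and MuvB, and cyclin-dependent kinase inhibitors restrain the process. Adult sensory neurons do not divide, while satellite glia, Schwann cells, macrophages, fibroblasts and endothelial cells of the ganglion can.

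The promoters of 6 members on which the results below turn are shown, at least 1 for each role, with the motifs named below marked. Each holds 250 bases before and 50 bases after the annotated start, on the gene's own strand, from RefSeq on the build GRCr8. The coordinates are chr7:64771203-64771502 (plus strand) for Cdk4, chr19:13488563-13488862 (plus strand) for Mcm5, chr5:137255750-137256049 (minus strand) for Cdc20, chr18:26504172-26504471 (plus strand) for Kif20a, chr1:199952544-199952843 (minus strand) for Mki67 and chr20:7150682-7150981 (plus strand) for Cdkn1a. Capitals mark matches on either strand to the cell cycle homology region (CHR, TTTGAA), the CCAAT box (CCAAT) and the E2F site (TTTCCCGC, TTTCGCGC, TTTGCCGC or TTTGGCGC).
Cdk4: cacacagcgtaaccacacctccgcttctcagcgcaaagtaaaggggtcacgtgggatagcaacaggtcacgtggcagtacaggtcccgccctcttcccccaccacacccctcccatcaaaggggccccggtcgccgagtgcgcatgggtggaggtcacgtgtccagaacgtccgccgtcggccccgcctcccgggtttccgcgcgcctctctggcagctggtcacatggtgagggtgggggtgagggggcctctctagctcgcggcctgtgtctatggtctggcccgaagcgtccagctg
Mcm5: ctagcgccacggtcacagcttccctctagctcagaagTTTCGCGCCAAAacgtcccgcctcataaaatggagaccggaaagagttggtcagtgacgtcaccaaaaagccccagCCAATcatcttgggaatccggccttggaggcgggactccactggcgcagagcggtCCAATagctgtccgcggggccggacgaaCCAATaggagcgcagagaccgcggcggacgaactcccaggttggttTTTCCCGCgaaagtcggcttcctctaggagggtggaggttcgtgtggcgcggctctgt
Cdc20: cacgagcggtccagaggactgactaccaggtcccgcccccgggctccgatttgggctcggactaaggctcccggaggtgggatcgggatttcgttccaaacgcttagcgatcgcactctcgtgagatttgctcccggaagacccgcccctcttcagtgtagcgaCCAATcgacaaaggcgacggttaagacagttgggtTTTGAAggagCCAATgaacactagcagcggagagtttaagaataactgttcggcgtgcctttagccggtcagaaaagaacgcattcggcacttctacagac
Kif20a: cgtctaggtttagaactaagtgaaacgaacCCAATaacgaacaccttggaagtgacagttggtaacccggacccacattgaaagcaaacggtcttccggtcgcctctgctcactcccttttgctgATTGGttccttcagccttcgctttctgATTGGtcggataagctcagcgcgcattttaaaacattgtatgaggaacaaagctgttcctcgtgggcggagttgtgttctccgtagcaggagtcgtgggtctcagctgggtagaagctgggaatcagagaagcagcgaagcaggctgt
Mki67: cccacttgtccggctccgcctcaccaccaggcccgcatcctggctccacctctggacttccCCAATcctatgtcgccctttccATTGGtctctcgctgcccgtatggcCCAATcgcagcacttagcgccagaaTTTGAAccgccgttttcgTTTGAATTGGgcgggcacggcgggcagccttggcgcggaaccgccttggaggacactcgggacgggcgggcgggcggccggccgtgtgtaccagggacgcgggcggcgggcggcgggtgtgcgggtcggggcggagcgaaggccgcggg
Cdkn1a: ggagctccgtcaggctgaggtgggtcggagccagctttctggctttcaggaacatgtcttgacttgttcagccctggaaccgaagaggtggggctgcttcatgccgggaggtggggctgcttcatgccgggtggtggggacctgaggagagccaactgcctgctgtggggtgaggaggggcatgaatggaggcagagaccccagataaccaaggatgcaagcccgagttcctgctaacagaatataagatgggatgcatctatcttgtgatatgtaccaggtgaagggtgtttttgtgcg

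In these sequences the Cdc20 promoter held a CHR from -51 to -46, counted from the annotated start at 0, with a CCAAT box on each side of it. The Mki67 promoter held CHR matches from -117 and from -99, and the second overlapped a reverse CCAAT box in the run TTTGAATTGG. The Kif20a promoter held 3 CCAAT boxes and no CHR, and the Cdk4 and Cdkn1a windows held none of these 3 motifs. The Mcm5 promoter held 3 E2F matches, 2 of which overlapped on opposite strands in the run TTTCGCGCCAAA. Of the 38 measured members, 30 had a promoter in the table. A CHR stood in 11 of 15 mitosis promoters, in 1 of 9 replication promoters and in none of 3 G1 and 3 inhibitor promoters, against 18.3% of all 33469 promoters and 11.7% of the 8124 measured genes with one. An E2F site stood in 6 of 9 replication promoters and 2 of 15 mitosis promoters, against 2.14% of all promoters and 3.59% of those of measured genes. A CCAAT box stood in 13 of 15 mitosis promoters and 6 of 9 replication promoters, against 37.5% of all. It stood in 1 of 3 G1 and 1 of 3 inhibitor promoters. Of the 15 mitosis promoters 10 held both a CHR and a CCAAT box, against 7.41% of all. These are matches of letters in a window and not binding sites shown to be used.

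Each array gives a probe set a signal in arbitrary units of brightness, which is comparable between arrays for 1 probe set and not between probe sets. Differences are of log2(signal + 1), SNL minus sham, with their standard error (SE), from 1 limma fit over all 10411 genes and 12 arrays. A gene passed the test at a Benjamini-Hochberg adjusted p under 0.05 over all genes. The number of arrays, 3 a group, limits the precision.

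After ligation every member that passed the test in HP or LP was higher. In HP 11 of the 38 members passed the test and all 11 were higher, where 7.02% of all genes were higher and 6.61% lower. In LP 18 of 38 passed and all were higher, against 7.66% of all genes higher and 6.79% lower. The median difference over the 38 members was 0.50 in HP and 0.63 in LP, beside -0.00 and 0.02 over all genes. Averaged over the lines, 24 of 38 rose and none fell past the test, although Racgap1 came close to it, where 13.0% of all genes were higher and 11.8% lower. The 3 SNL arrays lay wholly above the 3 sham arrays for 21 members in HP (17.2% of all genes), wholly below them for 1, Racgap1 (17.1%), and wholly above for 27 in LP (16.5%), and in both lines for 19 (9.85%).

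**Figure D1:**
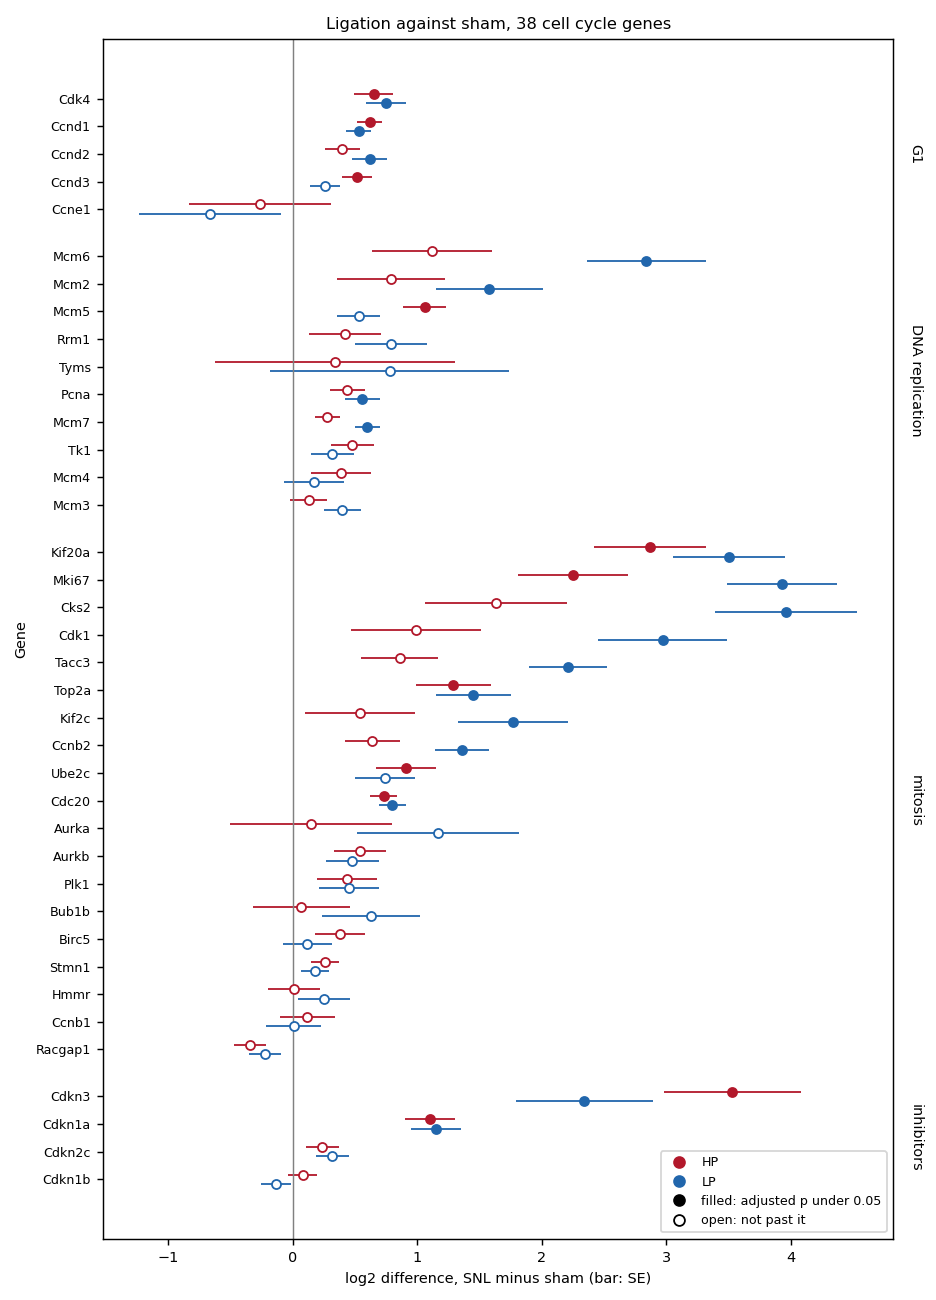
Difference in log2(signal + 1), SNL minus sham, for the 38 measured cell cycle genes by role, with HP in red, LP in blue and bars of 1 SE (3 arrays a group). Filled points passed the test (adjusted p under 0.05), 11 in HP and 18 in LP, and every filled point lies right of 0.

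Of the 5 G1 genes, 3 rose in HP, where 7.02% of all genes did, and 3 in LP, against 7.66%. Cyclin D1, D2 and D3 and their kinase Cdk4 were each past the test in at least 1 line, and cyclin E1 (Ccne1), which acts at entry to DNA synthesis, was past it in neither. Ccnd1, cyclin D1, the D-type cyclin most often induced by mitogens, had signals of 1264, 1178 and 1382 in HP SNL, against 805, 907 and 769 in HP sham. Across LP, Ccnd1 gave 1401, 1409 and 1455 after SNL, against 991, 908 and 1052 after sham. No SNL array overlapped a sham array in either line, and the difference was 0.62 ± 0.10 (SE, adjusted p = 0.00316) in HP and 0.53 ± 0.10 (SE, adjusted p = 0.006) in LP. Cdk4, the catalytic partner of the D-type cyclins, had 1184, 1156 and 1289 in HP SNL, against 694, 1036 and 630.3 in HP sham. Cdk4 had 1330.1, 1374 and 1281 in LP SNL, against 788, 781 and 805 in LP sham. Its 3 SNL arrays were above the shams in both lines, although HP sham replicate 2 came close, and it rose by 0.65 ± 0.16 (SE, adjusted p = 0.0228) in HP and by 0.75 ± 0.16 (SE, adjusted p = 0.0107) in LP. The HP call for Cdk4 was lost in 7 of 21 alternatives, with adjusted p up to 0.135, among them without HP sham replicate 1 or 3 or any 1 HP SNL array, while the LP call stood in all 21.

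Ccnd2, cyclin D2, had 514, 483 and 446 in HP SNL, against 416, 313 and 366 in HP sham. In LP, Ccnd2 signals were 582, 446 and 604 after SNL, against 326, 383 and 344 after sham. The groups were apart in both lines, and the difference passed in LP, at 0.62 ± 0.14 (SE, adjusted p = 0.0173), with 0.40 ± 0.14 (SE, adjusted p = 0.1) in HP. Ccnd3, cyclin D3, had 1078, 1008 and 1194 in HP SNL, against 723, 877 and 696 in HP sham. Across LP, Ccnd3 gave 1068, 998 and 1078 after SNL, against 936, 926 and 774 after sham. Here the larger difference was in HP, 0.52 ± 0.12 (SE, adjusted p = 0.0186), with 0.26 ± 0.12 (SE, adjusted p = 0.2) in LP. Single arrays changed both calls: Ccnd3 in HP missed the threshold without HP sham replicate 1 or 3 or HP SNL replicate 3 (adjusted p from 0.0701 to 0.0734), and Ccnd2 in LP missed it without LP sham replicate 1 or LP SNL replicate 1 or 3 (adjusted p from 0.0594 to 0.0692). Ccne1 was scattered within its groups, with differences of -0.26 ± 0.57 in HP and -0.66 ± 0.57 in LP, and its arrays overlapped in both lines.

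Of the 10 replication genes, 1 passed in HP, where 7.02% of all genes were higher, and 4 in LP, against 7.66%. The share in HP was near that of all genes. The genes that passed were all higher, and all 10 estimates were above 0 in both lines. Mcm5, a subunit of the MCM2-7 helicase that unwinds DNA at origins, had 329, 469 and 385 in HP SNL, against 193, 165 and 203 in HP sham. Mcm5 had 279.6, 321 and 279 in LP SNL, against 239, 164 and 212 in LP sham. It was the replication gene that passed in HP, 1.06 ± 0.17 (SE, adjusted p = 0.00302), and its LP estimate was 0.53 ± 0.17 (SE, adjusted p = 0.0645). Mcm7, another subunit, had 440.4, 397 and 475 in HP SNL, against 397, 327 and 359 in HP sham. In LP, Mcm7 signals were 457, 442 and 460 after SNL, against 306, 303 and 288 after sham. The SNL arrays were above the shams in both lines, and the gene passed in LP, 0.60 ± 0.10 (SE, adjusted p = 0.00316), with 0.28 ± 0.10 (SE, adjusted p = 0.0995) in HP.

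Mcm6, also a helicase subunit, was dim, with 129.9, 81.8 and 105 in HP SNL, against 18.6, 60.3 and 92.5 in HP sham. Across LP, Mcm6 gave 168, 106 and 141 after SNL, against 17.6, 24.4 and 13.9 after sham. The HP sham arrays ranged widely and 1 of them overlapped the SNL arrays, whereas the LP sham arrays were all far below. It rose in LP by 2.84 ± 0.48 (SE, adjusted p = 0.00371), a size that depends on how dim values are treated: adding 32 to each signal in place of 1 gave 1.74 ± 0.28 (adjusted p = 0.00187). In HP the difference was 1.12 ± 0.48 (SE, adjusted p = 0.173). Pcna, the sliding clamp of the replicative polymerases, had 1107, 892 and 1234 in HP SNL, against 714, 913 and 750.2 in HP sham. Pcna had 1101, 1182 and 1214 in LP SNL, against 758, 768 and 838 in LP sham. It rose in LP, 0.56 ± 0.14 (SE, adjusted p = 0.0195), and in HP the groups overlapped through HP SNL replicate 2 and HP sham replicate 2 (0.44 ± 0.14 SE, adjusted p = 0.0597). The LP call for Pcna was lost without LP sham replicate 1 or 2 or LP SNL replicate 2 or 3 (adjusted p from 0.054 to 0.0689).

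Mcm2 passed in LP at 1.58 ± 0.43 (SE, adjusted p = 0.0333), and missed the threshold without HP sham replicate 1, LP sham replicate 1 or 2, or any 1 LP SNL array, with adjusted p from 0.0508 to 0.107. Of the genes of nucleotide supply, Rrm1, Tk1 and Tyms did not pass in either line. The probe set shared by Rrm2 and Rrm2l1, described further on, passed in both. Rrm1, the large subunit of ribonucleotide reductase, differed by 0.42 ± 0.29 in HP and 0.79 ± 0.29 in LP. Tk1, thymidine kinase, differed by 0.48 ± 0.17 in HP and 0.32 ± 0.17 in LP, and passed in the mean of the lines (0.40 ± 0.12 SE, adjusted p = 0.032). Tyms, thymidylate synthase, was among the dimmest members and too variable to place, with standard errors of 0.96 in both lines. Mcm3 and Mcm4 did not pass, with estimates between 0.13 and 0.40.

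The mitosis genes held the largest LP differences in the list, with Cks2, Mki67 and Kif20a first on the log2(signal + 1) scale, and Cks2, Cdk1 (2.28) and Mki67 first with 32 added. Of 19, 5 passed in HP (26.3%, against 7.02% of all genes) and 9 in LP (47.4%, against 7.66%), all higher. The median difference of the 19 was 0.54 in HP and 0.80 in LP. Those past the test in at least 1 line are plotted by array. Mki67, the nuclear antigen used as a marker of cycling cells, had 222, 154 and 234 in HP SNL, against 19.2, 63.5 and 56.5 in HP sham. In LP, Mki67 signals were 213, 127 and 171 after SNL, against 6.0, 12.3 and 13.2 after sham. The SNL arrays were similar in the lines and lay above every sham array, and the LP sham arrays were below the 5th percentile of their own array on 3 of 3. Mki67 rose by 2.25 ± 0.44 (SE, adjusted p = 0.00856) in HP and 3.93 ± 0.44 (SE, adjusted p = 0.000351) in LP, or by 1.62 ± 0.24 in HP and 2.23 ± 0.24 in LP with 32 added to each signal.

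**Figure D2:**
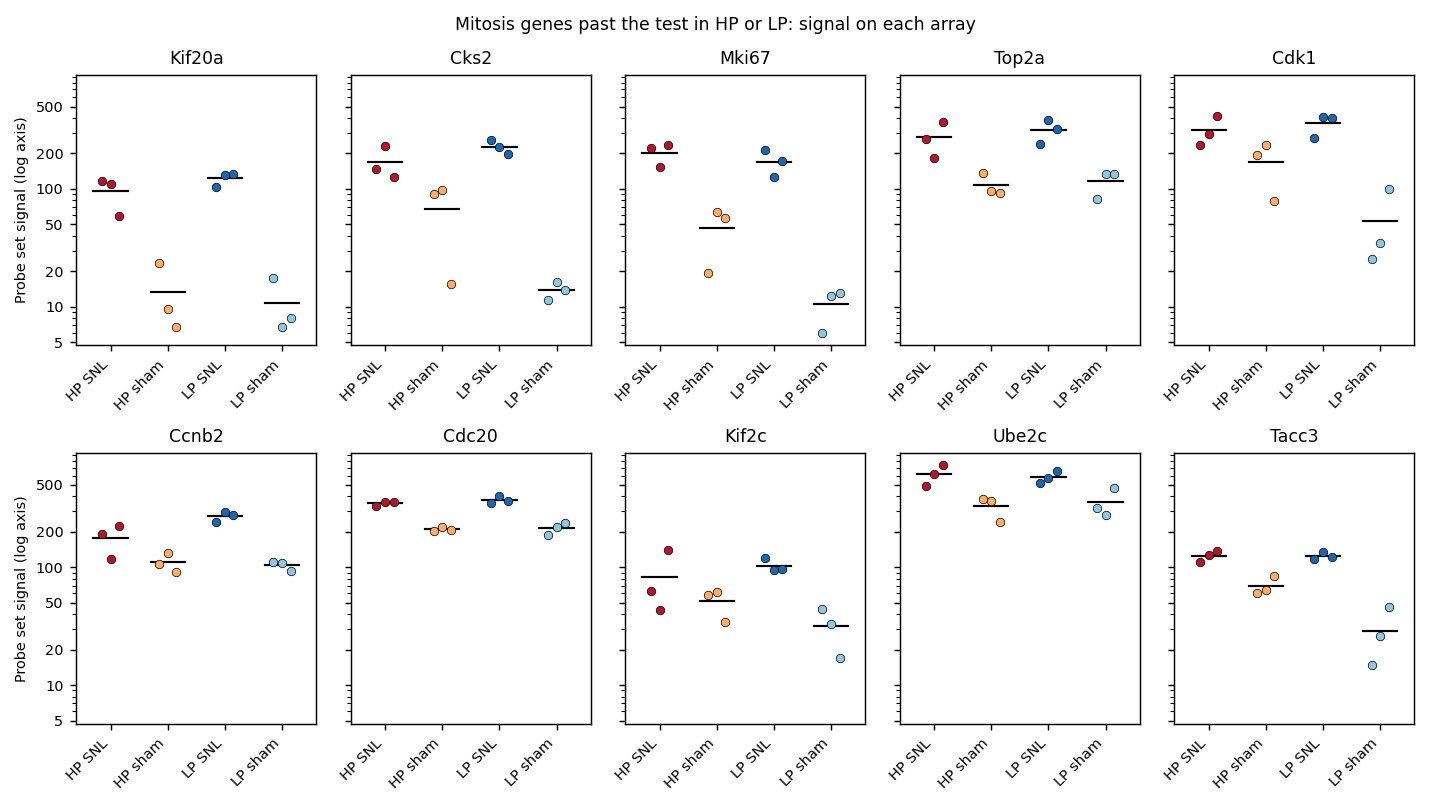
Signal of 10 mitosis genes on each array (points, log axis) by group, with lines at the group means of 3 arrays. In LP every gene has its 3 SNL arrays above its 3 sham arrays, and Ccnb2 and Kif2c overlap in HP.

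Kif20a, a kinesin of the central spindle needed for cytokinesis, had 117, 111 and 58.9 in HP SNL, against 23.4, 9.5 and 6.8 in HP sham. Across LP, Kif20a gave 104, 130.4 and 135 after SNL, against 17.4, 6.8 and 8.0 after sham. The groups were far apart in both lines, and 2 of 3 sham arrays in each line were below the 5th percentile of their array. Kif20a rose by 2.87 ± 0.45 (SE, adjusted p = 0.00287) in HP and 3.50 ± 0.45 (SE, adjusted p = 0.000806) in LP. With 32 added these became 1.48 ± 0.20 in HP and 1.86 ± 0.20 in LP, both past the test. Cdc20, the activator of the anaphase-promoting complex, had smaller and tighter differences: 328, 355 and 361 in HP SNL, against 202, 221 and 208 in HP sham. Cdc20 had 354, 401 and 368 in LP SNL, against 188, 221 and 238 in LP sham. No arrays overlapped, and it rose by 0.73 ± 0.11 (SE, adjusted p = 0.00181) in HP and 0.80 ± 0.11 (SE, adjusted p = 0.000891) in LP, past the test in all 21 alternatives in both lines. Top2a, the topoisomerase that untangles chromosomes before they part, had 267, 181 and 373 in HP SNL, against 137, 96.5 and 92.2 in HP sham. In LP, Top2a signals were 243, 381 and 321 after SNL, against 81.5, 133 and 133 after sham. It rose by 1.29 ± 0.30 (SE, adjusted p = 0.0186) in HP and 1.45 ± 0.30 (SE, adjusted p = 0.00951) in LP, and the HP call missed the threshold without HP sham replicate 2 or 3 or HP SNL replicate 1 or 3 (adjusted p from 0.0504 to 0.0691).

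Cks2, a small subunit that binds the mitotic kinase, had 147, 231 and 127 in HP SNL, against 91.0, 97.5 and 15.5 in HP sham. Across LP, Cks2 gave 258, 228 and 199 after SNL, against 11.4, 16.2 and 13.8 after sham. Its arrays did not overlap in either line, but HP sham replicate 3 was far below the other 2 HP shams. Cks2 passed in LP, 3.96 ± 0.57 (SE, adjusted p = 0.00149), with 1.63 ± 0.57 (SE, adjusted p = 0.0951) in HP. With 32 added both passed, at 2.50 ± 0.33 in LP (adjusted p = 0.000556) and 1.10 ± 0.33 in HP (adjusted p = 0.0473). Cdk1, the mitotic kinase itself, had 236, 292 and 414 in HP SNL, against 194, 235 and 79.6 in HP sham. Cdk1 had 269, 411 and 403 in LP SNL, against 25.2, 34.5 and 99.9 in LP sham. SNL arrays were above sham arrays in both lines, by little in HP, and the difference was 0.99 ± 0.52 (SE, adjusted p = 0.264) in HP and 2.97 ± 0.52 (SE, adjusted p = 0.00421) in LP.

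Tacc3, a spindle protein that works with the Aurora A kinase, had 110.4, 127 and 138 in HP SNL, against 60.1, 63.5 and 83.8 in HP sham. In LP, Tacc3 signals were 118, 135 and 123 after SNL, against 14.9, 26.1 and 46.0 after sham. The SNL arrays of both lines covered similar ranges and the LP shams were the lowest. Tacc3 rose in LP by 2.21 ± 0.31 (SE, adjusted p = 0.00137), or by 1.40 ± 0.17 with 32 added (adjusted p = 0.00032). In HP it differed by 0.86 ± 0.31 (SE, adjusted p = 0.109), and passed with 32 added (0.64 ± 0.17, adjusted p = 0.0275), with quantile normalization (adjusted p = 0.0188) and with only the HP arrays fitted (adjusted p = 0.0309). Ccnb2, cyclin B2, a partner of Cdk1, had 190, 117 and 223 in HP SNL, against 106, 133 and 91.8 in HP sham. Across LP, Ccnb2 gave 241, 293 and 276 after SNL, against 112, 109.6 and 92.2 after sham. HP SNL replicate 2 lay among the HP shams, and the gene passed in LP, 1.36 ± 0.22 (SE, adjusted p = 0.0031), with 0.64 ± 0.22 (SE, adjusted p = 0.0936) in HP.

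Kif2c, a kinesin that takes apart microtubules at centromeres, passed in LP (1.77 ± 0.44 SE, adjusted p = 0.0237) and Ube2c, the ubiquitin-conjugating enzyme of the anaphase-promoting complex, in HP (0.91 ± 0.24 SE, adjusted p = 0.033). Both calls missed the threshold when single arrays were left out. For Kif2c these were LP sham replicates 2 and 3 and all 3 LP SNL arrays (adjusted p from 0.0516 to 0.0788), and for Ube2c all 3 HP sham arrays and HP SNL replicates 2 and 3 (adjusted p from 0.0512 to 0.114). The other 9 mitosis genes passed in neither line. Among the mitotic kinases Plk1 differed by 0.44 ± 0.24 in HP and 0.45 ± 0.24 in LP, Aurkb by 0.54 ± 0.21 in HP and 0.48 ± 0.21 in LP, and Aurka by 0.15 ± 0.65 in HP and 1.17 ± 0.65 in LP. Aurkb passed in the mean of the lines (0.51 ± 0.15 SE, adjusted p = 0.0282). Ccnb1, the other B-type cyclin on the array, differed by 0.12 ± 0.22 in HP and 0.01 ± 0.22 in LP, and its arrays overlapped in both lines. A second Ccnb1 probe set, 1370345_at, had its 3 HP SNL arrays above the HP shams, at 0.54 ± 0.21 (SE, adjusted p = 0.153), and was at 0.36 ± 0.21 (SE, adjusted p = 0.344) in LP. Racgap1, a centralspindlin subunit, was the 1 mitosis gene with estimates below 0, -0.34 ± 0.13 in HP and -0.22 ± 0.13 in LP, and just missed in the mean of the lines (-0.28 ± 0.09 SE, adjusted p = 0.0501). It passed as lower in that mean under 5 other settings with all arrays, at -0.26 to -0.32 (adjusted p from 0.0242 to 0.0466), and without HP sham replicate 2, LP sham replicate 3 or LP SNL replicate 3. Birc5 and Bub1b, of the chromosomal passenger complex and the spindle checkpoint, and Hmmr and Stmn1, which bind or take apart microtubules, had estimates from 0.01 to 0.63. Stmn1 is also a neuronal protein.

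**Figure D3:**
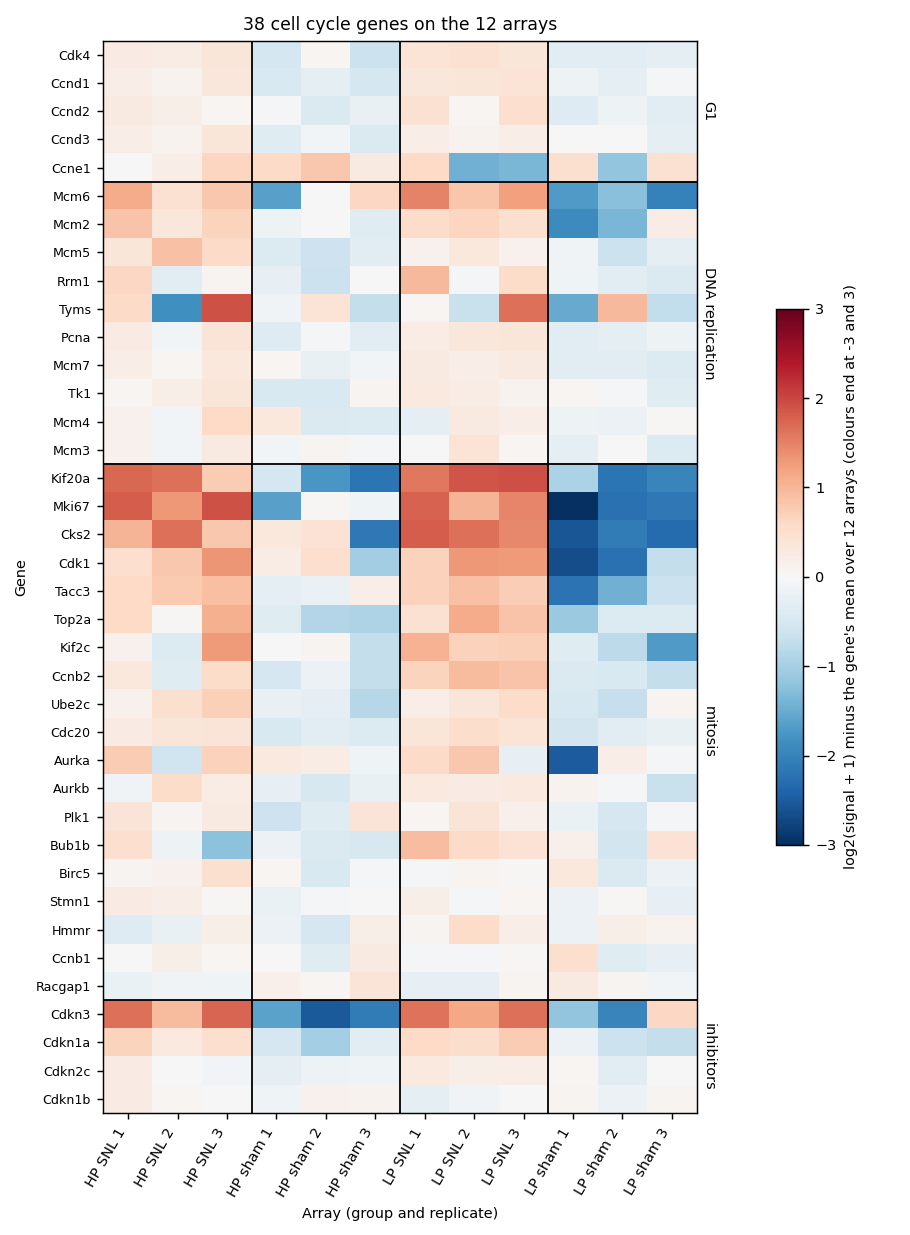
Log2(signal + 1) of each of the 38 genes (down the page, by role) on each of the 12 arrays (across), minus the gene's mean over all arrays. Red is above that mean and blue below, and in the mean of the lines the largest differences between SNL and sham lie in Kif20a (3.19), Mki67 (3.09), Cdkn3 (2.93) and Cks2 (2.79), ahead of Cdk1 and Mcm6 (both 1.98).

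Among the inhibitors, 2 of 4 rose in both lines, Cdkn1a and Cdkn3, a pattern met by 5.07% of all genes. Cdkn1a, the p21 inhibitor of cyclin-dependent kinases and a target of p53, had 1081, 837 and 965 in HP SNL, against 481, 338 and 549 in HP sham. Cdkn1a had 1038, 989 and 1166 in LP SNL, against 606, 435 and 418 in LP sham. No arrays overlapped, and it rose by 1.10 ± 0.20 (SE, adjusted p = 0.00591) in HP and 1.15 ± 0.20 (SE, adjusted p = 0.00413) in LP, 2.14-fold in HP and 2.21-fold in LP, past the test in all 21 alternatives. Cdkn3, a phosphatase that acts on cyclin-dependent kinases and is itself made in dividing cells, had 213, 129.8 and 226 in HP SNL, against 21.2, 10.8 and 14.8 in HP sham. In LP, Cdkn3 signals were 208, 152 and 214 after SNL, against 28.8, 16.1 and 103 after sham. The groups were apart in both lines, although LP sham replicate 3 stood well above the other LP shams. Cdkn3 rose by 3.53 ± 0.55 (SE, adjusted p = 0.0028) in HP and 2.34 ± 0.55 (SE, adjusted p = 0.0182) in LP, or by 2.20 ± 0.33 in HP and 1.59 ± 0.33 in LP with 32 added. The LP call was lost without LP sham replicate 1 or 2 or LP SNL replicate 1 or 3 (adjusted p from 0.0515 to 0.0629). Cdkn1b, p27, which holds resting cells out of the cycle, differed by 0.08 ± 0.12 in HP and -0.13 ± 0.12 in LP. Cdkn2c, an inhibitor of Cdk4 and Cdk6, differed by 0.24 ± 0.13 in HP and 0.32 ± 0.13 in LP and passed in the mean of the lines (0.28 ± 0.09 SE, adjusted p = 0.04).

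Many of these genes were near the dim end of the arrays. Of the 38, 14 had a mean in the dimmest 25% of genes, among them Kif20a, Mki67, Cks2, Cdkn3, Mcm6, Tacc3 and Ccnb2. With those genes left out, 9 of 24 members passed in HP, where 10.4% of genes were higher, and 11 of 24 in LP, where 11.2% were higher. With 32 added to each signal, 13 of 38 passed in HP and 18 of 38 in LP. The shares of all genes with 32 added are not given here.

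Members with several probe sets were also read from each of them, in a fit of all 15866 probe sets, of which 5.42% were higher in HP and 6.35% in LP. The other 2 probe sets of Ccnd1 passed in LP, at 1.07 ± 0.16 (SE, adjusted p = 0.00236) for 1371150_at and 1.51 ± 0.22 (SE, adjusted p = 0.0019) for 1383075_at. In HP the first was at 0.57 ± 0.16 (SE, adjusted p = 0.0513) and the second at 0.64 ± 0.22 (SE, adjusted p = 0.096). Probe set 1387391_at of Cdkn1a had 243, 317 and 241 in HP SNL, against 51.0, 37.4 and 70.8 in HP sham. It had 343, 299 and 249 in LP SNL, against 64.3, 134 and 162 in LP sham. It passed in both lines, 2.34 ± 0.33 (SE, adjusted p = 0.00219) in HP and 1.39 ± 0.33 (SE, adjusted p = 0.0237) in LP. The probe sets of Cdc20 disagreed: 1387895_s_at passed in LP (0.55 ± 0.14 SE, adjusted p = 0.0269) and was at 0.44 ± 0.14 (SE, adjusted p = 0.0709) in HP. Probe set 1389506_x_at was above 0 in both lines without passing. Probe set 1394113_at was at -0.19 ± 0.20 in HP and 0.10 ± 0.20 in LP, and 1374360_at at 0.30 ± 0.22 in HP and -0.09 ± 0.22 in LP. The second probe set of Top2a, 1372186_a_at, was at 0.29 ± 0.22 in HP and 0.30 ± 0.22 in LP, short of the test. The second probe set of Kif2c, 1369380_at, was at -0.03 ± 0.85 in HP and 1.27 ± 0.85 in LP, and that of Cdkn1b, 1369192_at, at -0.17 ± 0.19 in HP and -0.25 ± 0.19 in LP, all short of it too. So were those of Tk1, 1372631_at, at 0.32 ± 0.41 in HP and 0.60 ± 0.41 in LP, and of Hmmr, 1370461_at, at 0.32 ± 0.44 in HP and 0.28 ± 0.44 in LP. Averaging the probe sets of a gene gave Ccnd1 1.04 in LP and Cdkn1a 1.72 in HP. It gave Cdc20 0.39 in HP and 0.38 in LP, and Top2a 0.79 in HP and 0.87 in LP, all past the test. Averaged in this way, Tk1 no longer passed in the mean of the lines (0.43, adjusted p = 0.0884). The probe set shared by Rrm2, the small subunit of ribonucleotide reductase, and Rrm2l1 had 663, 515 and 671 in HP SNL, against 198, 256 and 159 in HP sham. It had 710.3, 634 and 646 in LP SNL, against 355, 195 and 258 in LP sham. It rose by 1.61 ± 0.23 (SE, adjusted p = 0.00231) in HP and 1.34 ± 0.23 (SE, adjusted p = 0.00484) in LP, and which of both genes it read cannot be told apart.

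**Figure D4:**
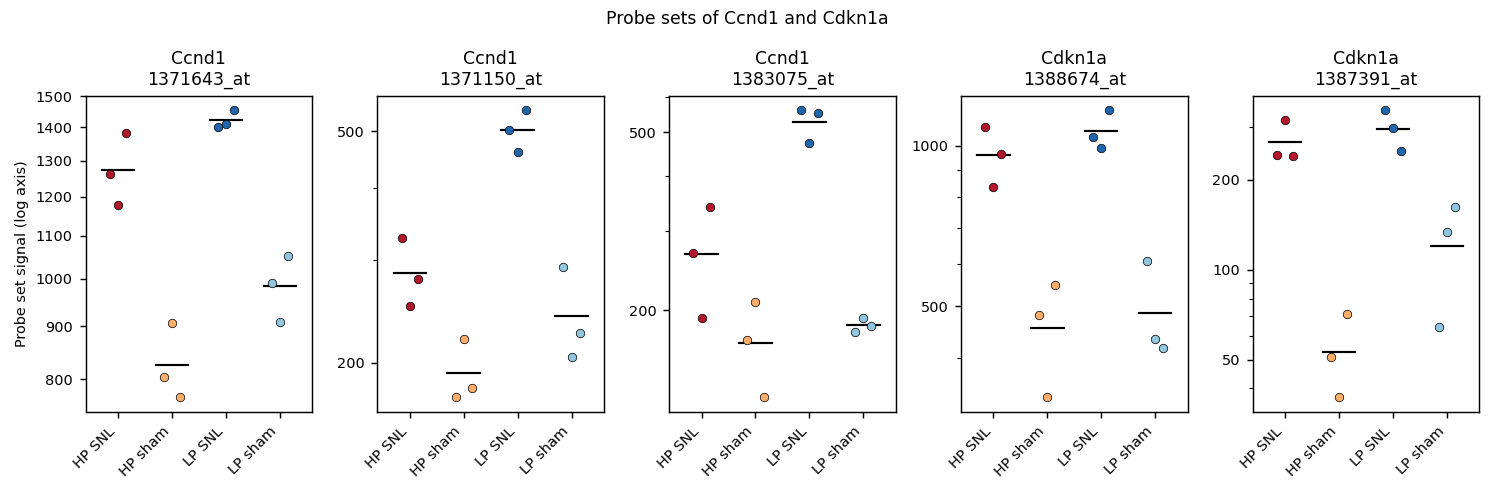
Signal of 3 probe sets of Ccnd1 and 2 of Cdkn1a on each array (points) by group, with lines at the means of 3 arrays and log axes that differ between panels. In LP the SNL arrays lie above the sham arrays for all 5 probe sets, and in HP 1383075_at overlaps.

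Beyond these members, 96 of 156 further listed cell cycle genes were measured. Of these 9 rose in HP, 9.38% where 7.02% of all genes did, and 10 in LP, 10.4% against 7.66%, and none fell in either. In the mean of the lines 16 rose, 16.7% against 13.0% of all genes, and 3 fell. The shares that rose were near those of all genes. Their median difference was 0.18 in HP and 0.23 in LP. None of 33 further replication genes passed in HP or LP, where 4 in HP and 3 in LP had an unadjusted limma p under 0.05. In the mean of the lines Rfc2, of the clamp loader, rose (0.27 ± 0.07 SE, adjusted p = 0.0157), and Dut, which breaks down dUTP, and Rpa1, which binds single-stranded DNA, fell, by a difference of -0.27 ± 0.07 (SE, adjusted p = 0.0174) for Dut and -0.47 ± 0.14 (SE, adjusted p = 0.0374) for Rpa1. Of 14 further G1 genes 2 passed in each line (14.3%), beside 7.02% of all genes in HP and 7.66% in LP. They were the transcription factor Myc and Tfdp1, the partner of E2F factors. Myc had 283, 243 and 282 in HP SNL, against 236, 144 and 158 in HP sham. In LP, Myc signals were 272, 258 and 297 after SNL, against 125, 130.2 and 130.4 after sham. It rose by 0.62 ± 0.17 (SE, adjusted p = 0.0348) in HP and 1.09 ± 0.17 (SE, adjusted p = 0.00194) in LP, and Tfdp1 by 0.59 ± 0.16 (SE, adjusted p = 0.0383) in HP and 0.56 ± 0.16 (SE, adjusted p = 0.0442) in LP. In HP the call was lost in 9 of 21 alternatives for Myc and 11 for Tfdp1, and in LP in 16 for Tfdp1, with adjusted p up to 0.185. Cul1, a scaffold of ubiquitin ligases, did not pass in HP (-0.33 ± 0.13) or LP (-0.35 ± 0.13) and fell in the mean of the lines (-0.34 ± 0.09 SE, adjusted p = 0.0246).

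Of 34 further mitosis genes 4 passed in each line, all higher, which is 11.8% beside 7.02% of all genes in HP and 7.66% in LP. Kif22, a chromosome-bound kinesin, had 696, 552 and 570.2 in HP SNL, against 209, 182 and 197 in HP sham. Across LP, Kif22 gave 576, 498 and 506 after SNL, against 212, 204 and 226 after sham. The groups were tight and far apart, and it rose 3.07-fold in HP and 2.45-fold in LP, 1.62 ± 0.11 (SE, adjusted p = 4.83e-05) in HP and 1.29 ± 0.11 (SE, adjusted p = 0.000116) in LP. Lmnb1, lamin B1 of the nuclear envelope, rose by 0.68 ± 0.18 (SE, adjusted p = 0.0359) in HP and 0.98 ± 0.18 (SE, adjusted p = 0.00617) in LP, and Kif18b passed in LP (0.55 ± 0.15 SE, adjusted p = 0.0355) with 0.30 ± 0.15 (SE, adjusted p = 0.247) in HP. The HP call for Lmnb1 was lost in 10 of 21 alternatives and the LP call for Kif18b in 13 of 20. Of 15 further inhibitors 3 passed in HP (20.0%, against 7.02% of all genes) and 4 in LP (26.7%, against 7.66%), all higher. Gadd45a, a stress-induced growth arrest protein, had 1938, 1969 and 2074 in HP SNL, against 538, 412 and 506 in HP sham. Gadd45a had 2441, 1953 and 2053 in LP SNL, against 548, 422 and 323 in LP sham. It rose 4.13-fold in HP and 5.07-fold in LP, 2.04 ± 0.18 (SE, adjusted p = 0.000184) in HP and 2.34 ± 0.18 (SE, adjusted p = 7.45e-05) in LP. Its relative Gadd45g rose by 1.29 ± 0.17 (SE, adjusted p = 0.00124) in HP and 1.43 ± 0.17 (SE, adjusted p = 0.000578) in LP, and Btg1, an antiproliferative gene, by 0.70 ± 0.15 (SE, adjusted p = 0.0134) in HP and 0.71 ± 0.15 (SE, adjusted p = 0.0108) in LP. The HP call for Btg1 was lost in 4 of 21 alternatives: without HP sham replicate 1 or 3 or HP SNL replicate 3, and with the RNA quality ratio given further on as a covariate, where it was at 0.44 (adjusted p = 0.0822).

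The lines shared 8 of the calls: Ccnd1, Cdk4, Kif20a, Mki67, Top2a, Cdc20, Cdkn1a and Cdkn3 were higher past the test in both, a pattern met by 5.07% of all genes. Ccnd3, Mcm5 and Ube2c passed in HP and not in LP, and 10 members, Ccnd2, Pcna, Mcm2, Mcm6, Mcm7, Cks2, Cdk1, Ccnb2, Kif2c and Tacc3, in LP and not in HP. Of these 10, Tacc3 and Cks2 passed in HP too with 32 added. The difference between the lines' ligation effects, tested as an interaction, passed for none of the 38 by limma and for 0.0% of all genes. At an unadjusted p under 0.05, 8 members were past it, against 4.71% of all genes: Tacc3, Cks2, Mki67, Cdk1, Mcm6, Mcm7 and Ccnb2 had the larger difference in LP, and Mcm5 in HP. The smallest of these p-values were for Tacc3, with an LP effect larger than the HP effect by 1.35 ± 0.44 (SE, adjusted p = 0.988), and for Cks2, by 2.33 ± 0.81 (SE, adjusted p = 0.988), both in limma. With 32 added the interaction was 0.76 for Tacc3, 1.40 for Cks2 and 0.62 for Mki67, against 1.68 for Mki67 without it. Without HP sham replicate 3 the Cks2 interaction was 3.18 and passed (adjusted p = 0.024). That array, at 15.5, was the 1 HP sham array with Cks2 below its 5th percentile, where 2 of 3 LP sham arrays also had it.

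Between the lines, the estimates for several of these genes were larger after sham than after SNL, without passing the test. LP sham lay wholly below HP sham for Mki67, Tacc3 and Mcm7 (7.4% of all genes) and above it for Ccnd1 (8.19%). Mki67 had 6.0, 12.3 and 13.2 in LP sham, against 19.2, 63.5 and 56.5 in HP sham, a difference of -1.94 ± 0.44 (SE, adjusted p = 0.255). For Tacc3 the LP minus HP difference after sham was -1.35 ± 0.31 (SE, adjusted p = 0.263), for Cks2 -1.86 ± 0.57 (SE, adjusted p = 0.386) and for Cdk1 -1.77 ± 0.52 (SE, adjusted p = 0.373), and after SNL these were -0.26 for Mki67, 0.00 for Tacc3, 0.48 for Cks2 and 0.21 for Cdk1. None of the 38 passed the limma test between lines after sham, where 0.0% of all genes were higher and 0.00961% lower in LP, and 7 had an unadjusted p under 0.05 (9.76% of all genes). Without HP sham replicate 3, Cks2 was lower in LP sham past the test (-2.70, adjusted p = 0.0101). The sizes after sham depend on how dim values are treated. With all arrays and 32 added, LP minus HP after sham was -0.84 for Mki67, -0.75 for Tacc3, -0.99 for Cks2 and -1.25 for Cdk1.

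After SNL none passed between the lines either, where 0.0864% of all genes were higher and 0.0864% lower in LP, and 3 members had an unadjusted p under 0.05 (10.7% of all genes). LP SNL lay wholly above HP SNL for Ccnd1 and Ccnb2 (9.1% of all genes) and wholly below it for Mcm5 and Cdkn1b (8.33%). Ccnb2 had 241, 293 and 276 in LP SNL, against 190, 117 and 223 in HP SNL (0.65 ± 0.22 SE, adjusted p = 0.341), and Mcm5 had 279.6, 321 and 279 in LP SNL, against 329, 469 and 385 in HP SNL (-0.41 ± 0.17 SE, adjusted p = 0.415). The 2 other Ccnd1 probe sets were also apart after SNL: 1371150_at had 501, 460.2 and 544 in LP SNL, against 327, 249.9 and 278 in HP SNL (0.82 ± 0.16 SE, adjusted p = 0.111), and 1383075_at had 561, 472 and 552 in LP SNL, against 269, 192 and 341 in HP SNL (1.01 ± 0.22 SE, adjusted p = 0.148). The probe set that stood for Ccnd1 differed by 0.16 ± 0.10.

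**Figure D5:**
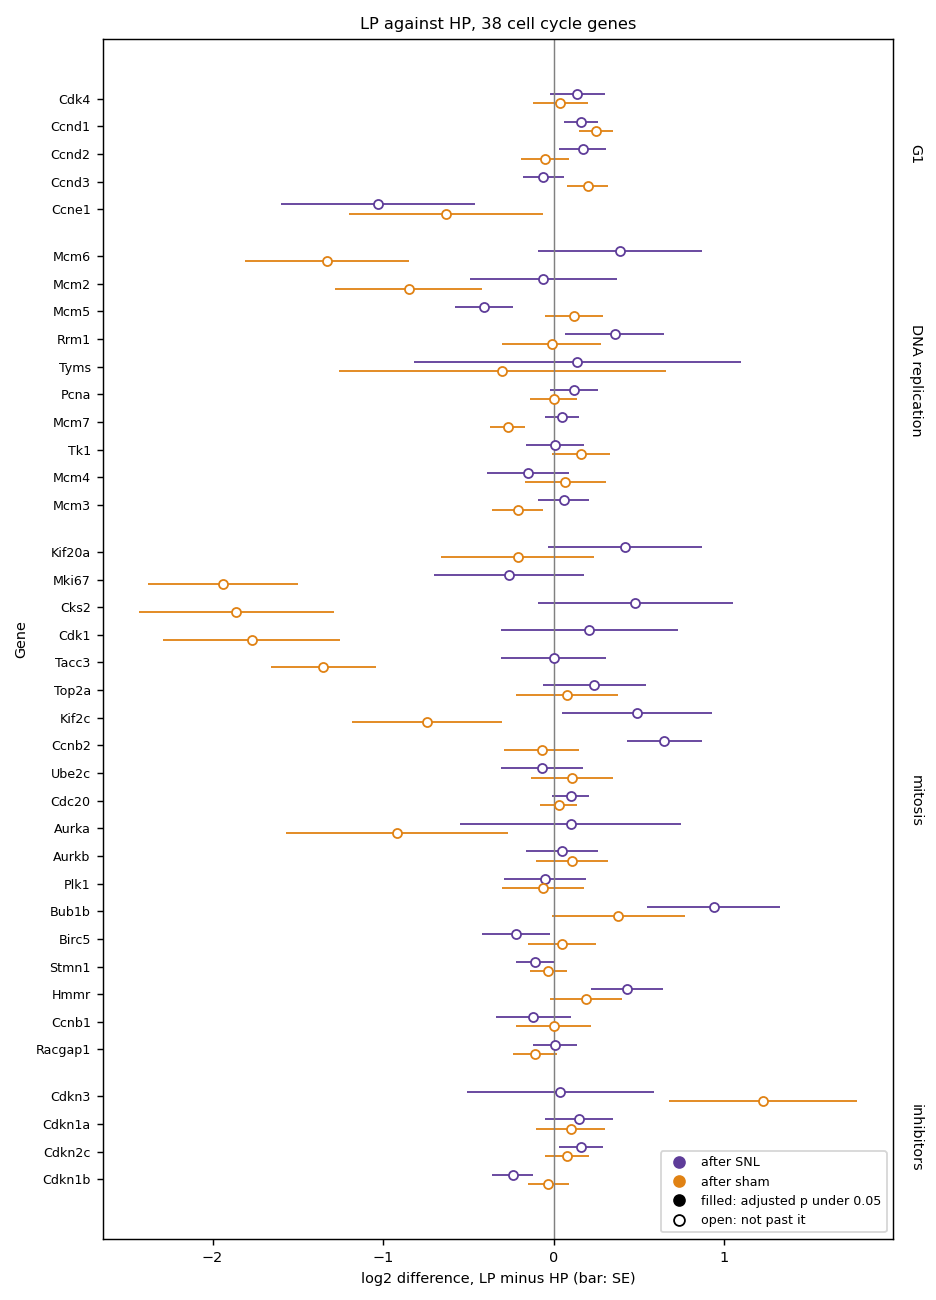
Difference in log2(signal + 1), LP minus HP, for the 38 genes after SNL (purple) and after sham (orange), with bars of 1 SE (3 arrays a group). No point is filled, since none passed the test, and the lowest sham values belong to Mki67, Cks2, Cdk1 and Tacc3.

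Markers of some other cell types moved with ligation, and in HP so did a measure of RNA quality. The part of these cell types in the cell cycle differences was not tested. In these whole ganglia more cells of a type and more RNA per cell cannot be told apart. The summed signal of 13 macrophage markers was 14960 to 16690 in HP SNL, against 7123 to 8298 in HP sham, and 13660 to 15890 in LP SNL, against 6481 to 6886 in LP sham. Of the 13, 10 rose in HP, where 7.02% of all genes did, and 9 in LP, against 7.66%. Cd68 was up 3.38-fold in HP and 4.01-fold in LP. Of 8 satellite glia markers 3 rose in each line (37.5%), namely Gfap, Glul and Gja1. Gfap was up 3.19-fold in HP and 2.91-fold in LP. Another of the 8, Fabp7, lay wholly below sham in both lines, at -0.55 in HP and -0.60 in LP, short of the test. Estimates below 0 numbered 1 of the 8 in HP and 4 in LP. Of 8 endothelial markers 4 rose in HP and 3 in LP, and of 10 fibroblast markers 5 in HP and 6 in LP, where 1 also fell. Of 9 Schwann cell and myelin markers 1 rose and 1 fell in each line, near the shares of all genes. None of 11 T cell and 3 neutrophil markers passed. Of 13 sensory neuron markers 7 fell in HP, where 6.61% of all genes did, and 8 in LP, against 6.79%. The summed signal of these 13 was 41330 to 43500 in HP SNL, against 50370 to 53630 in HP sham, and 35470 to 38940 in LP SNL, against 49130 to 52630 in LP sham. No marker of any list was at 0. The 3′ to 5′ signal ratio of the actin control probes, which rises as RNA breaks down, was 1.237, 1.342 and 1.118 in HP SNL, against 1.847, 1.483 and 1.772 in HP sham, and 1.125, 1.113 and 1.124 in LP SNL, against 1.877, 1.154 and 0.993 in LP sham. All HP SNL arrays were below the HP shams, and in LP the groups overlapped. With this ratio as a covariate 7 of 38 members passed in HP and 20 in LP. In HP Cdk4, Ccnd3, Mki67, Top2a and Ube2c were lost and Aurkb was gained. The shares of all genes with this covariate are not given here. The HP differences of the lost members with the covariate were 0.53 for Ccnd3, against 0.52 without it, 0.53 against 0.65 for Cdk4, 1.56 against 2.25 for Mki67, 0.90 against 1.29 for Top2a and 0.69 against 0.91 for Ube2c.

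Single arrays also weighed on the counts. Of the 21 members past the test in at least 1 line, HP SNL replicate 3 was the highest of its group for 14 and HP SNL replicate 2 the lowest for 13. Without HP SNL replicate 3, 7 of 38 passed in HP. Some members that had not passed with all arrays did so when 1 array was left out. In HP these were Pcna without HP sham replicate 2 or HP SNL replicate 2, Ccnb2 without HP SNL replicate 2, Plk1 and Tk1 without HP sham replicate 3, Tacc3 without LP sham replicate 1 or 3, and Mcm2 without LP sham replicate 3 (adjusted p from 0.0141 to 0.0402). In LP they were Mcm5 without LP sham replicate 1, Ube2c without LP sham replicate 3 and Rrm1 without LP SNL replicate 2 (adjusted p from 0.024 to 0.0475). With all arrays, other settings also brought some of them past the test: in HP Pcna with the dimmest genes left out or with a trended variance, and Mcm2 with only the HP arrays fitted, and in LP Mcm5 and Ube2c with the dimmest genes left out and Rrm1 with a replicate block (adjusted p from 0.0293 to 0.0434). In the mean of the lines, leaving out 1 array ended the call for Tk1 with 8 of the 12 arrays, for Aurkb with 6 and for Cdkn2c with 9 (adjusted p up to 0.0912). The median signal of all probe sets ran from 278.4 to 313.2 over the arrays.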

How the data were processed

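Total RNA of L4/L5 ganglia was isolated with a Qiagen RNeasy kit and labelled with biotin for Affymetrix arrays, per the labels' protocols. The values used are intensities as deposited, linear, for 15923 probe sets. RMA, without a version, is the tool that the submitters' processing notes name. Trimmed of 2% of values at each end, every array averaged 499.9, so the authors' steps are not fully known here. Of 191076 values 109 were below 1.

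Log2(intensity + 1) was computed and not normalized again. Symbols came from the platform annotation, updated through RefSeq gene identifiers for 12748 probe sets, and a probe set with several genes (312) stood for none. limma 3.58.1 (statmod 1.5.0, R 4.3.3) fitted 4 group means to the 12 arrays, with two-sided contrasts and Benjamini-Hochberg adjustment over 10411 genes. The fit was tested on simulated data. Alternatives were a pseudocount of 32, the dimmest 25% of genes left out, quantile normalization, median centring, probe sets averaged per gene, a trended robust variance, the actin ratio as a covariate, only the arrays compared, a replicate block, each array left out in turn and, added after the data were seen, a test of each probe set. Every array's values are given for the members past the threshold in either line with the smallest p in the mean of the lines, up to 8 in mitosis and 4 in each other role, with Mki67, Top2a, Cdk1 and Pcna always included, and up to 3 further cell cycle genes per role were named. The members and all lists, cell type markers included, were chosen with earlier results of these data known. Replicate numbers come from the sample titles. Correlations of same-numbered arrays' deviations from their group means ran from -0.158 to 0.098, so the numbers were not taken to pair the arrays.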

Additional observations from a re-analysis of the deposited data

Results flagged for a closer look

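Probe sets of the members other than the one that stood for the gene entered none of the counts of members, and 7 of their ligation differences passed when all 15866 probe sets were fitted singly, where 5.42% of them were higher in HP and 6.35% in LP. For Ccnd1, 1371150_at was higher after SNL in LP by 1.07 and 1383075_at by 1.51, and for Cdc20, 1387895_s_at was higher in LP by 0.55. For Cdkn1a, 1387391_at was higher by 2.34 in HP and 1.39 in LP. The probe set shared by Rrm2l1 and Rrm2, 1389408_at, was higher by 1.61 in HP and 1.34 in LP. All are log2 differences, SNL minus sham, with the 3 SNL arrays above the 3 sham arrays.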

How the results depend on the processing

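With 3 arrays a group and 14 of 38 members in the dimmest 25% of genes, the sizes given for dim members move with the pseudocount. This is stated beside some of them. For 3 others the LP difference with 32 added was 1.17 for Mcm2, against 1.58, 1.11 for Kif2c, against 1.77, and 1.14 for Ccnb2, against 1.36. Members higher past the test numbered 11 in HP and 18 in LP, where 7.02% of all genes were higher in HP and 7.66% in LP. For the settings that follow, the share of all genes is given above only with the dimmest genes left out. Adjusting for the actin ratio gave 7 in HP, and leaving out the dimmest genes gave 11 of 24 in LP, with 14 members no longer tested. Leaving out single arrays gave 7 to 13 in HP, 13 to 18 in LP and 20 to 24 in the mean of the lines, all of them higher except where Racgap1 was lower. Between the lines it gave 0 to 0 after SNL, 0 to 1 after sham and 0 to 1 for the interaction, and the 1 was Cks2 in each case, without HP sham replicate 3. Cdk4 in HP missed the threshold in 7 of 21 alternatives and Cdkn3 in LP in 5 of 20. Calls for Ccnd1, Cdc20, Cdkn1a and Kif20a stood in every alternative that tested them, in both lines, other than their further probe sets. Among the calls past the test, the reversed signs were of 2 other probe sets of Cdc20, at -0.19 in HP (1394113_at) and -0.09 in LP (1374360_at). The cause was not tested.

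With the replicate number as a block, 10 members were higher past the test in HP, 18 in LP and 22 in the mean of the lines, and 0 in the line contrasts and the interaction. The block lost Ube2c in HP (adjusted p = 0.0582) and exchanged Mcm2 for Rrm1 in LP.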
